A study of Zea mays with 6 samples.

Results

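In endosperm of the maize mutant floury3 (fl3), 37 of 39448 genes were expressed in every library while they were at or near 0 in wild-type (WT) endosperm. These fl3-only genes were chosen from the measured values: a mean below 0.1 FPKM over the WT libraries and at least 5 FPKM in every fl3 library. FPKM is a gene's number of sequenced fragments, corrected for gene length and library total. The rule selected 0.0938% of all genes, and 0.334% of the 11082 genes that reached 5 FPKM in every fl3 library. Because these values chose the genes, the contrast between genotypes is a description for them and carries no test.

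RNA was sequenced from endosperm collected 10 days after flowering (the labels also write after pollination) from field-grown Zea mays, with 3 WT and 3 fl3 libraries called independent biological replicates in the design text. No treatment was given, and the labels name neither the inbred lines behind WT and fl3 nor the generation or dose of the fl3 allele. All fl3 libraries carry the mutation and all WT libraries lack it, so an effect of the mutation and a difference between the parents of the 2 stocks cannot be told apart in these data.

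Endosperm is the nutritive tissue of the kernel, which stores starch and zein proteins and feeds the embryo. The product of floury3 belongs to the PLATZ family of plant zinc-binding proteins and is known to bind parts of the RNA polymerase III machinery, and mutant kernels are soft and opaque. Maize inbred lines are known to differ from each other in the genes they carry as well as in how strongly shared genes are expressed. A gene set defined by presence in 1 stock and near-absence in the other can therefore hold both kinds of difference. A segment inherited together with a mutation would place such genes near the mutated locus. Targets of a regulator can lie anywhere, and so can genes that differ between the parents of the stocks.

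The storage protein gene gz27, a marker of endosperm, had between 7164 and 15337 FPKM in the 6 libraries. Its means were 14122 FPKM in WT and 8630 FPKM in fl3. Of 4 listed genes of green tissue, ssu1 and GRMZM2G083841 (pep1) had at most 0.0411 FPKM while pep4 and GRMZM5G899080 (Pep1) had 3.31 to 11.5 FPKM. Embryo genes were present in both genotypes, with 132 to 236 FPKM for the oleosin gene ole1 and 158 to 249 FPKM for the globulin gene glb3. Their means in WT and fl3 were 140 and 219 FPKM for ole1 and 233 and 169 FPKM for glb3, so they went in opposite directions. Markers of several cell types differed between genotypes. Mean levels in WT and fl3 were 19.1 and 86.7 FPKM for esr1 and 10.6 and 82.7 FPKM for ESR3 of the embryo-surrounding region, 4.65 and 15.7 FPKM for the aleurone gene cr4, and 1.56 and 3.70 FPKM for the embryo regulator vp1. They were 6771 and 2158 FPKM for the zein gene bz15 and 67.3 and 32.5 FPKM for o2, a regulator of zein genes. The listed endosperm genes gz16 (3714 and 2097 FPKM) and sh1 (1481 and 722 FPKM) were also lower in fl3. The part of cell types in the levels of the fl3-only genes was not tested. Transcripts of floury3 itself (GRMZM2G006585) were between 2100 and 2427 FPKM in WT and between 3084 and 3214 FPKM in fl3, so its level does not by itself verify the labels. FPKM summed to between 465741 and 480602 per library. The number of reads behind a value is unknown, so no counting interval can be given. A value of 0 is described as listed at 0, since the gene GRMZM2G373011 is listed at 0 in fl3 replicate 3 with 7.84 FPKM or more in each of the other 5 libraries.

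In WT the fl3-only genes were near the bottom of the scale. Of the 37 genes, 17 were listed at 0 in all 3 WT libraries, 15 in 2 of them, 3 in 1 and 2 in none. Of the 111 WT values 84 were listed at 0, and 9 reached 0.1 FPKM. The highest single WT value was 0.260 FPKM, of GRMZM2G117940 in WT replicate 3, with the other two WT libraries listed at 0. Added up, the 37 genes gave 0.759, 0.776 and 0.777 FPKM in the 3 WT libraries, against 796, 922 and 771 FPKM in fl3 replicates 1, 2 and 3. They made up 0.171%, 0.193% and 0.162% of the FPKM sum of the fl3 libraries.

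**Figure D1:**
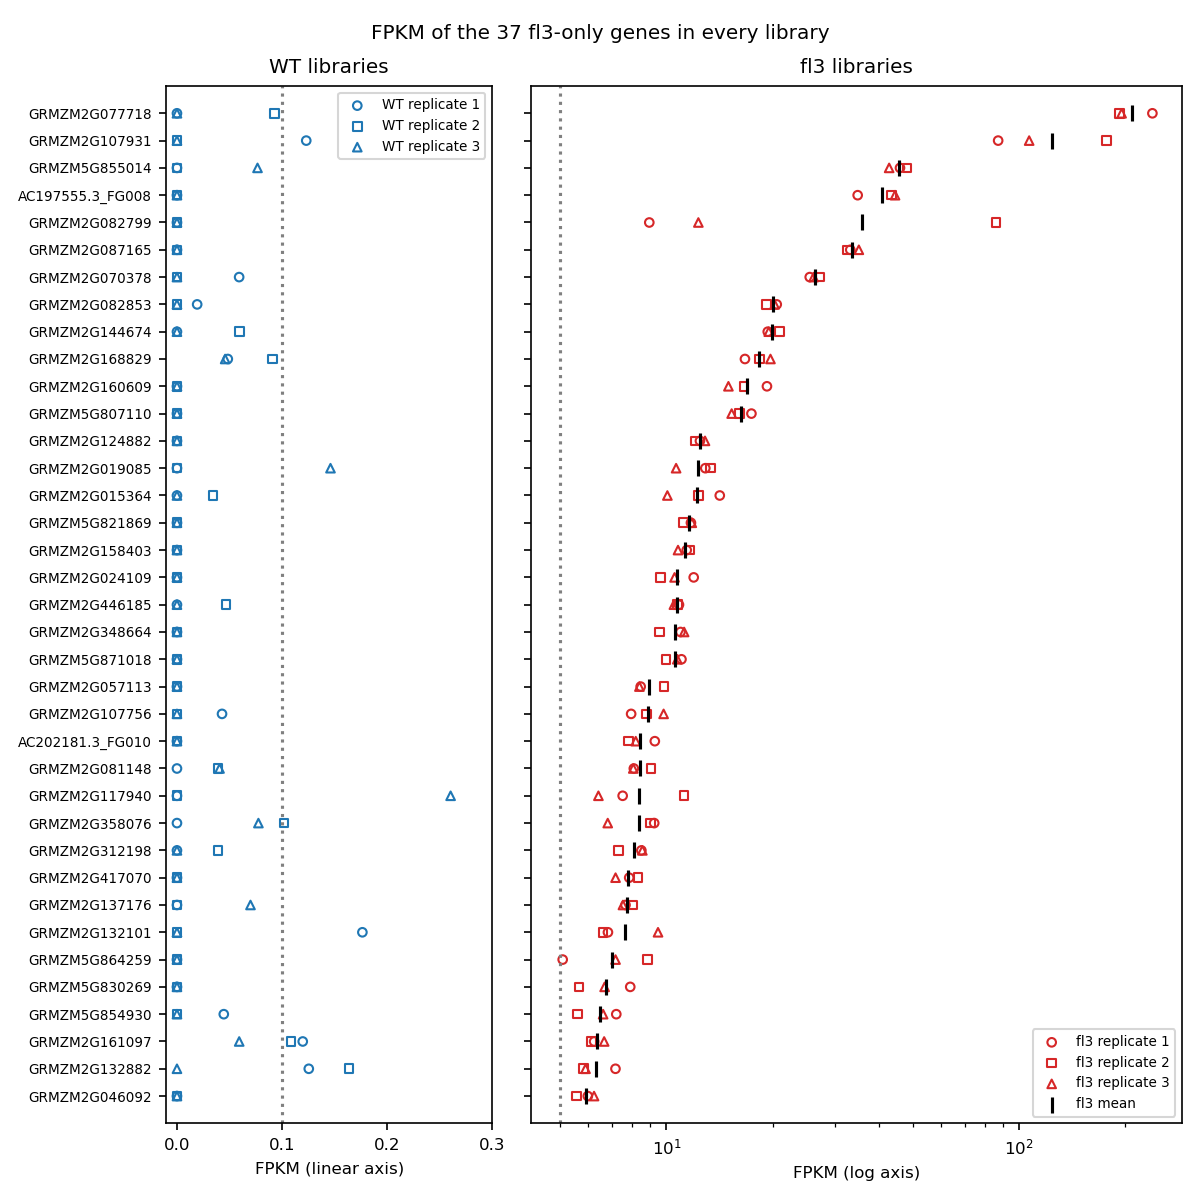
FPKM of each fl3-only gene in the 3 WT libraries (left, linear axis) and the 3 fl3 libraries (right, log axis), ordered by fl3 mean (black bar); dotted lines mark the 0.1 and 5 FPKM limits of the rule, of which the first applies to the WT mean. GRMZM2G077718 and GRMZM2G107931 stand at 87.2 FPKM or more in each fl3 library, and GRMZM2G082799 has its replicates spread from 8.94 to 86.0 FPKM.

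Most fl3-only genes were expressed at modest levels. Mean fl3 values ran from 5.92 to 209 FPKM with a median of 10.7 FPKM, against a median of 16.0 FPKM for the other 11045 genes that reached 5 FPKM in every fl3 library. There were 16 genes with a mean between 5 and 10 FPKM, 13 between 10 and 20, 6 between 20 and 50, none from 50 to 100, and 2 above 100.

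GRMZM2G077718 was the highest, with 239, 193 and 195 FPKM in fl3 replicates 1 to 3 (209 ± 25.9 FPKM, SD, n = 3). In WT it was listed at 0 in replicates 1 and 3 and had 0.0927 FPKM in replicate 2. Its lowest fl3 library thus lay far above every WT library, and the fl3 libraries lay within 1.24-fold of each other. GRMZM2G107931 followed with 87.2, 177 and 107 FPKM in fl3 and 0.123, 0 and 0 FPKM in WT. Its fl3 replicate 2 was 2.03-fold above the lowest fl3 library. These genes held 40.9%, 40.1% and 39.1% of the summed level of the whole group in fl3 replicates 1, 2 and 3.

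Below them, GRMZM5G855014 had 45.9, 48.1 and 42.8 FPKM in fl3, with 0.0767 FPKM in WT replicate 3 and 0 in the other two. AC197555.3_FG008 had 34.8, 43.5 and 44.5 FPKM in fl3 and was listed at 0 in every WT library. GRMZM2G087165 had 33.2, 32.7 and 35.1 FPKM in fl3 and was also listed at 0 in every WT library. For these genes the fl3 libraries lay within 1.28-fold of each other, widest for AC197555.3_FG008, and by the rule apart from all WT libraries.

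GRMZM2G070378 had 25.5, 27.3 and 26.1 FPKM in fl3 and 0.0592 FPKM in WT replicate 1. GRMZM2G082853 had 20.5, 19.2 and 20.3 FPKM in fl3 and 0.0192 FPKM in WT replicate 1, the lowest WT value above 0 among the 37. GRMZM2G144674 had 19.4, 20.9 and 19.5 FPKM in fl3 and 0.0593 FPKM in WT replicate 2. Each of these was listed at 0 in the remaining WT libraries, and each varied by less than 1.1-fold between fl3 libraries.

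GRMZM2G168829 differed from the genes around it in being above 0 in all 3 WT libraries, at 0.0484, 0.0910 and 0.0459 FPKM, against 16.7, 18.3 and 19.7 FPKM in fl3. GRMZM2G160609, with 19.3, 16.6 and 15.0 FPKM in fl3, was listed at 0 throughout WT. GRMZM5G807110, with 17.4, 16.1 and 15.3 FPKM, was too. The remaining 25 genes had fl3 means from 5.92 to 12.5 FPKM, with fl3 values from 5.08 to 14.2 FPKM and WT values from 0 to 0.260 FPKM.

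Replicates of most fl3-only genes lay close together, and a few did not. The coefficient of variation (CV, SD over mean) across the fl3 libraries was under 10% for 21 genes, between 10% and 20% for 11 and at least 20% for 5, and 33 of the 37 had their highest fl3 library within 1.5-fold of the lowest. The median CV was 8.53%, against 6.04% for the other 11045 genes at 5 FPKM or more in fl3, whose middle 50% ran from 3.76% to 9.15%. For genes of mean below 20 FPKM the medians were 8.53% over 29 fl3-only genes and 6.75% over 6518 others. A CV of at least 20% was seen in 13.5% of the fl3-only genes and 2.93% of the others. Replicate 1 was the highest fl3 library for 13 genes, replicate 2 for 13 and replicate 3 for 11.

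The smallest spread was that of GRMZM2G446185, at 10.9, 10.7 and 10.5 FPKM in fl3 (CV 1.69%), with 0.0465 FPKM in WT replicate 2. GRMZM5G821869 followed with 11.7, 11.2 and 11.8 FPKM (CV 2.98%), then GRMZM2G124882 with 12.4, 12.1 and 12.9 FPKM (CV 3.12%). Both were listed at 0 in every WT library.

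The largest spread was that of GRMZM2G082799, at 8.94, 86.0 and 12.3 FPKM in fl3 and 0 in every WT library. Its CV of 122% was the highest of all 11082 genes at 5 FPKM or more in every fl3 library, and its mean of 35.7 FPKM rested on replicate 2. Without that replicate its mean was 10.6 FPKM, and without replicate 1 or 3 it was 49.1 or 47.5 FPKM. The next largest CVs were those of GRMZM2G107931 (38.1%) and of GRMZM2G117940 (29.9%), the latter with 7.51, 11.2 and 6.41 FPKM in fl3. Of the 5 genes with a CV of at least 20%, 4 had their highest value in fl3 replicate 2. GRMZM2G132101 had its highest in replicate 3.

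**Figure D2:**
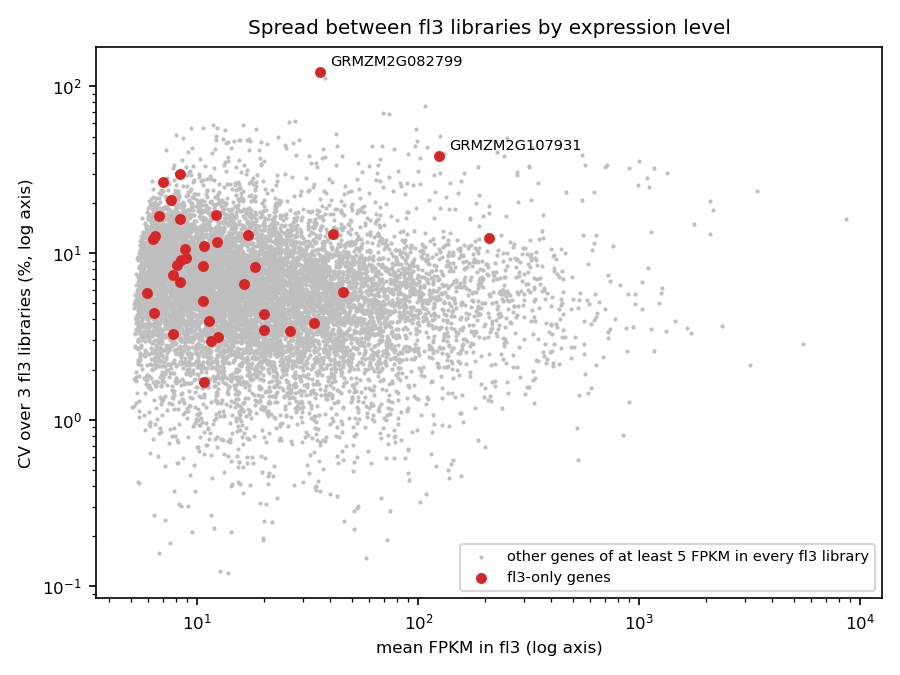
Coefficient of variation over the 3 fl3 libraries against mean FPKM in fl3 (both log axes) for the fl3-only genes (red) and all other genes of at least 5 FPKM in every fl3 library (grey). GRMZM2G082799 has the highest spread of any gene shown, at 122%, and the median of the fl3-only genes is 8.53%.

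Most listed genes of the basal endosperm transfer layer, the cells that take up maternal nutrients, were also highest in fl3 replicate 2. Of 15 such genes found by symbol (betl, bap, meg, mn1, tcrr-1 and MRP1, a list assembled after the values were seen), 14 averaged 1 FPKM or more across the libraries, and 13 of these had their highest fl3 value in replicate 2. Their summed level was 4323, 6199 and 3289 FPKM in fl3 replicates 1, 2 and 3, and between 3171 and 4487 FPKM in WT. The sum hides differences between genotypes in both directions. Means in WT and fl3 were 77.4 and 12.3 FPKM for bap-1a, and 4.92 and 25.9 FPKM for betl3. None of the 15 genes was listed at 0 in all libraries. The gene listed under the symbol MRP1 (GRMZM2G113203) stayed at 0.198 FPKM or less in every library. Whether it is the transfer layer regulator known by that name was not checked. The ratio of replicate 2 to the mean of replicates 1 and 3 had a median of 1.83 over the 14 genes averaging 1 FPKM or more. It was highest for betl3, at 2.59. It was 8.09 for GRMZM2G082799, 1.82 for GRMZM2G107931, 1.61 for GRMZM2G117940, 1.44 for GRMZM5G864259 and 0.812 for GRMZM2G132101, the last below 1 unlike 13 of the 14 transfer layer genes. It was 0.988 at the median of the fl3-only genes. Neither this ratio nor the share of genes highest in replicate 2 is given here for all expressed genes, so these values have no background. The part of the transfer layer in the spread of the fl3-only genes was not tested. In bulk tissue more cells of a type and more RNA per cell cannot be told apart.

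The limits of the rule cut through a continuous range of levels. Just inside the 5 FPKM limit were GRMZM5G864259, with a lowest fl3 value of 5.08 FPKM, GRMZM2G046092 (5.55 FPKM) and GRMZM5G854930 (5.59 FPKM). Just outside were GRMZM5G878913 (4.93 FPKM), GRMZM5G866269 (4.89 FPKM) and GRMZM2G111774 (4.89 FPKM). Just inside the WT limit were GRMZM2G132882, GRMZM2G161097 and GRMZM2G117940, with WT means of 0.0964, 0.0959 and 0.0868 FPKM.

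Just outside the WT limit lay genes with a high level in fl3. GRMZM2G046382 had 0.0826, 0.0782 and 0.155 FPKM in WT (mean 0.105) and 72.4, 90.6 and 103 FPKM in fl3, so that 2 of the 37 genes exceeded its fl3 mean of 88.8 FPKM. GRMZM2G134878 had a WT mean of 0.150 FPKM and 16.1, 17.1 and 15.5 FPKM in fl3. GRMZM2G123390 had a WT mean of 0.157 FPKM and 23.3, 20.6 and 22.8 FPKM in fl3. Every fl3 library of these genes lay above every WT library. Their choice set this, since they were picked for a low WT mean among genes at 5 FPKM or more in every fl3 library.

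Exchanging the genotypes in the rule gave 25 WT-only genes, or 0.0634% of all genes. The gap in number between the groups depended on the scaling of the libraries: it was 37 against 25 on the deposited values, 34 against 30 after median-of-ratios scaling and 33 against 31 after quantile normalization. They made up 0.244% of the 10243 genes that reached 5 FPKM in every WT library. In fl3, 17 of them were listed at 0 in all 3 libraries, the same number as for the fl3-only genes in WT, and none of their 75 fl3 values reached 0.1 FPKM. Their WT means ran from 5.53 to 22.6 FPKM with a median of 8.22 FPKM, so none came near the 2 highest fl3-only genes. The highest was GRMZM2G077400, with 22.0, 20.5 and 25.3 FPKM in WT and 0 in every fl3 library. GRMZM2G034862 had 28.0, 12.1 and 22.4 FPKM in WT and had the largest spread of the 25 (CV 38.8%). GRMZM5G897480, GRMZM2G001648 and GRMZM2G033515 had WT means of 17.9, 17.8 and 16.5 FPKM. The median CV over the WT libraries was 10.6%.

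**Figure D3:**
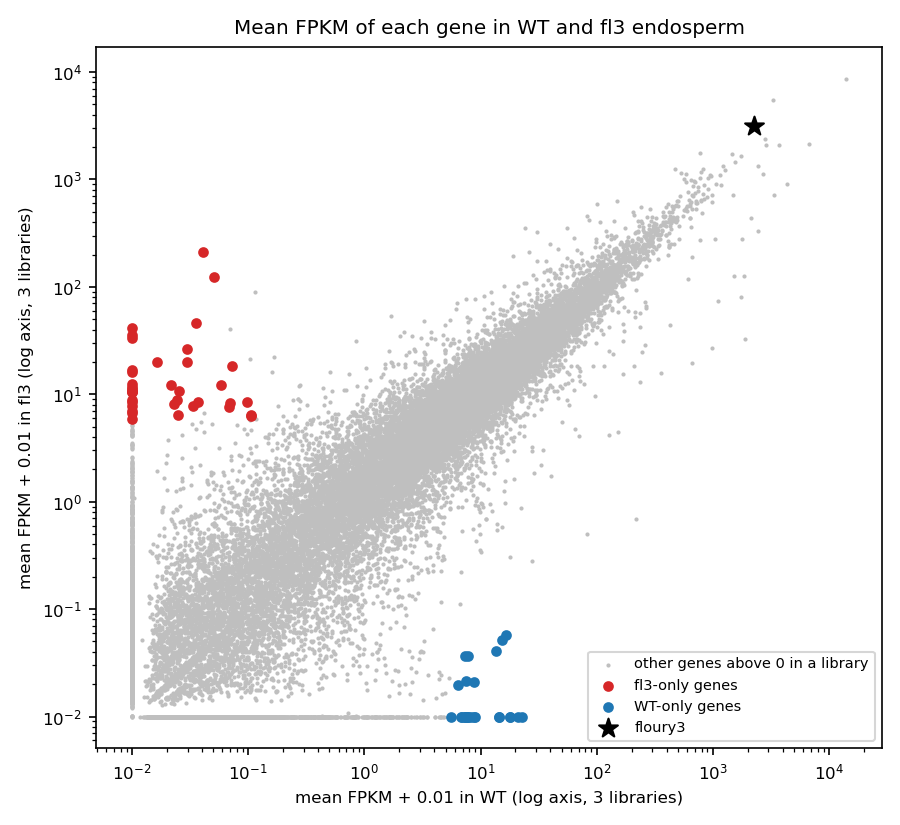
Mean FPKM + 0.01 in WT (horizontal) and in fl3 (vertical), both log axes, for every gene above 0 in a library; fl3-only genes are red, WT-only genes blue, floury3 a black star. The fl3-only genes reach 209 FPKM, whereas the WT-only genes stop at 22.6 FPKM.

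At every level tried on the deposited values, without further scaling, more genes were found in fl3 alone than in WT alone. With the limit of 0.1 FPKM kept for the silent genotype, 270 genes reached 0.5 FPKM in every library of fl3 alone and 222 in WT alone. At 1 FPKM the counts were 155 and 137, at 2 FPKM 84 and 74, and at 10 FPKM 17 and 9. More genes also reached these levels in fl3 to begin with. As shares of the genes at the level in that genotype, the counts were 1.48% and 1.26% at 0.5 FPKM and 0.924% and 0.857% at 1 FPKM. The shares were 0.569% and 0.532% at 2 FPKM and 0.227% and 0.130% at 10 FPKM. At 20 FPKM the counts were 6 and 1, and the 2 genes that reached 50 FPKM were fl3-only. These differences between directions were not tested, since genes are not independent replicates.

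The whole transcriptome differed widely between these libraries, and the fl3-only genes are to be read against that. In a limma fit of log2(FPKM + 1) over the 17272 genes that averaged 1 FPKM or more, 7519 genes, or 43.5%, had a higher level in fl3 at a Benjamini-Hochberg adjusted p under 0.05, and 4107, or 23.8%, a lower one. All 37 fl3-only genes passed the filter, which their fl3 level ensures. All 37 were called higher, which is no test of them, since the rule chose them on the same contrast. Most genes at 5 FPKM or more in fl3 were also expressed in WT: 9822 of the 11082 (88.6%) had a WT mean of at least 5 FPKM, and 1035 had 2 to 5 FPKM. Another 134 had 1 to 2 FPKM, 31 had 0.5 to 1 FPKM and 23 had 0.1 to 0.5 FPKM. Of the fl3-only genes at the end of this range, 20 had a WT mean above 0 and 17 were listed at 0.

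Little can be said of the identity of the fl3-only genes. The files give identifiers without names, so they were looked up in an NCBI RefSeq gene table of another assembly, Zm-B73-REFERENCE-NAM-5.0, by identifier and synonym. A match was found for 10 of the 37 genes and none had a name that states a function. For 9 the reference gene was protein coding, and GRMZM5G830269 matched a long noncoding RNA. No role is therefore given to any of them, and the other 27 are known here by identifier alone. Of the 37 identifiers 28 began with GRMZM2G, 7 with GRMZM5G and 2 with AC, the name of a sequenced clone. The GRMZM5G series made up 18.9% of the fl3-only genes and 6.18% of all genes at 5 FPKM or more in every fl3 library. Its share was 12% of the WT-only genes (3 of 25) and 8.34% of all 39448 genes.

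The share with a RefSeq match, a property the rule did not use, was lower among fl3-only genes than among other expressed genes. It was 27.0% (10 of 37), against 77.0% of the 11082 genes at 5 FPKM or more in fl3 and 47.9% of all 39448 genes. Among genes with an fl3 mean under 20 FPKM it was 24.1% (7 of 29), against 73.7% of 6547. For the 16165 genes under 0.1 FPKM in both genotypes it was 20.9%. The WT-only genes had a share of 40.0% (10 of 25), against 77.5% of the 10243 genes at 5 FPKM or more in WT.

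This share rose in steps with the level in WT. Among genes at 5 FPKM or more in fl3 it was 23.5% for those listed at 0 in WT, 30.0% for those above 0 and under 0.1 FPKM, and 47.8% for those from 0.1 to 0.5 FPKM. It was 51.6% from 0.5 to 1 FPKM, 62.7% from 1 to 2, 74.0% from 2 to 5, and 77.8% at 5 FPKM or more. The class at 0 held only 17 genes, and joined with the next it gave the 27.0% of all fl3-only genes. For genes at 5 FPKM or more in WT, sorted by their fl3 level, the share went from 35.3% of 17 genes at 0 to 77.8% of 9727 genes at 5 FPKM or more, with 61.4% of 44 genes at 1 to 2 FPKM below the 70.8% of 24 genes at 0.5 to 1 FPKM. The shares describe which older identifiers the table lists, and no test over genes was made.

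**Figure D4:**
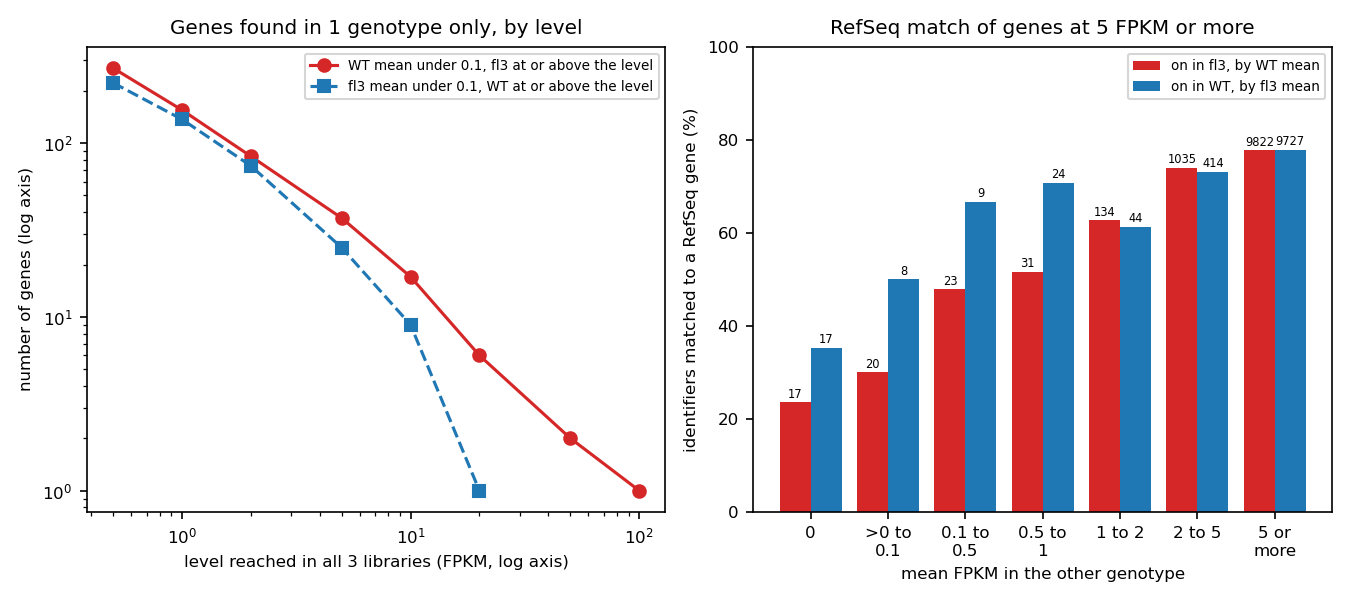
Left, number of genes below a mean of 0.1 FPKM in 1 genotype that reach a given FPKM in all 3 libraries of the other (log axes; 100 FPKM is reached by 1 fl3-only gene, and no WT-only gene reaches 50 FPKM). Right, percent of identifiers with a RefSeq match among genes at 5 FPKM or more in every library of fl3 (red) or WT (blue), by mean FPKM in the other genotype, with the number of genes above each bar; the red bars rise from 23.5% to 77.8%.

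The 10 matched fl3-only genes were scattered over the genome. In the order of that reference assembly, 1 lay on chromosome 1, 2 each on chromosomes 2, 4, 6 and 7, and 1 on chromosome 5. None lay on chromosome 8, which holds floury3 and 8.88% of all matched genes. The 27 genes without a match could not be placed. The 10 placed genes are too few to judge an absence from a chromosome with 8.88% of matched genes. Whether their positions reflect the mutation or the parents of the stocks was not tested. Of the 10 matched WT-only genes, 3 lay on chromosome 4, 2 on chromosome 8, and 1 each on chromosomes 1, 2, 3, 5 and 10.

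No 2 matched fl3-only genes were neighbours. For each of the 10, the nearest measured gene with a match was taken on either side, 20 genes in all. Of these, 10 had no reference gene in between and the farthest had 13. None of the 20 was itself fl3-only or WT-only. Genes without a match could not appear as neighbours, among them 27 fl3-only and 15 WT-only genes. Both genotypes had a mean of at least 1 FPKM for 11 of the 20, and for 9 of these 11 the means lay within 2-fold of each other. Of the 12 that entered the limma fit, 8 were called higher in fl3 and 2 lower, against 43.5% and 23.8% of all tested genes.

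Some neighbours were strongly expressed in both genotypes. GRMZM2G087165, listed at 0 in WT, lay between GRMZM2G386714, with 20.1 to 22.2 FPKM in WT and 36.9 to 39.9 FPKM in fl3, and GRMZM2G086904, with 71.5 to 89.2 FPKM in WT and 140 to 146 FPKM in fl3. GRMZM2G082853 lay beside GRMZM2G082886, with means of 4.31 FPKM in WT and 14.4 FPKM in fl3, and GRMZM2G082809, with 15.0 and 11.4 FPKM. GRMZM2G161097 had on one side GRMZM2G100403, with 399 FPKM in WT and 371 FPKM in fl3. Near-absence in WT was thus not shared by these flanking genes.

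GRMZM2G132101 on chromosome 7 was a different case, because both of its immediate neighbours were nearly silent in WT as well. GRMZM2G132101 itself had 0.177, 0 and 0 FPKM in WT and 6.82, 6.61 and 9.46 FPKM in fl3. GRMZM2G132032 on one side had 0.113, 0.0721 and 0.0377 FPKM in WT and 0.765, 0.913 and 0.556 FPKM in fl3. GRMZM2G135783 on the other side had 0.0956, 0.0277 and 0.0906 FPKM in WT and 0.366, 0.606 and 0.459 FPKM in fl3. Both neighbours had every fl3 library above every WT library, as did 12 of the 20 neighbours in all. The share of all genes with such a separation is not given here, so this count has no background. GRMZM2G070378 on chromosome 6 also lay between genes that were higher in fl3, GRMZM2G148460 (means of 0.821 and 5.42 FPKM) and GRMZM2G071638 (2.02 and 3.75 FPKM), though both had at least 0.645 FPKM in each WT library. Around GRMZM5G830269 the nearest measured genes with a match were listed at 0 in all 6 libraries, with 13 and 6 reference genes in between.

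The other matched genes were GRMZM2G160609 and GRMZM2G137176 on chromosome 4, GRMZM2G057113 on chromosome 2 and GRMZM2G081148 on chromosome 1. GRMZM2G137176 had 7.65, 8.01 and 7.53 FPKM in fl3 and 0.0700 FPKM in WT replicate 3. GRMZM2G057113 had 8.45, 9.85 and 8.38 FPKM in fl3 and was listed at 0 in WT. GRMZM2G081148 had 8.08, 9.04 and 8.05 FPKM in fl3, with 0.0392 and 0.0405 FPKM in WT replicates 2 and 3. These 3 are named for their match and not for their level, and their fl3 libraries lay within 1.18-fold of each other.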

How the data were processed

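Each library came as its own table of FPKM values for the same genes, as the authors deposited it, and all 6 tables were used. Per the submitters' processing notes, TopHat, Bowtie2 and FastQC were used, with the build B73 RefGen_v3. Strand handling, the gene models and the program that made the FPKM are not stated in those notes, so reads shared with near-identical copies or overlapping genes are uncertain. Libraries were grouped by title. Members were selected on unscaled means and minima. The fit across genes used limma 3.58.1 under R 4.3.3 with genotype as its single term, a mean-variance trend in eBayes, a pseudocount of 1 and genes averaging 1 FPKM or more, after a check on simulated data. Tables were handled with Python 3.11.15, pandas 2.3.3 and numpy 2.4.6, and plots drawn with matplotlib 3.10.9.

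Genes named are the 12 of highest fl3 mean, the 3 nearest each limit on either side, the 3 of largest and smallest CV, the 5 highest WT-only genes and floury3; matched members and their neighbours were added after values were seen. Protein copies were not searched, because no protein sequences were used here. The members, lists and rules were chosen with earlier results of these data known. Alternatives covered the limits, scaling, filter, pseudocount, replicate block and each library left out.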

Additional observations from a re-analysis of the deposited data

How the results depend on the processing

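The number of fl3-only genes was set by the limits: 60 genes with WT below 0.5 FPKM, 17 when WT had to be exactly 0, 84 at 2 FPKM and 17 at 10 FPKM in every fl3 library. It stayed between 31 and 53 under the limits of 0.05 and 0.2 FPKM, a mean of 5 FPKM, median-of-ratios scaling (34) and quantile normalization (33), and between 36 and 44 without 1 library at a time. WT-only genes numbered 74 at 2 FPKM and 9 at 10 FPKM, between 17 and 34 under the other limits, 30 after median-of-ratios scaling and 31 after quantile normalization, and 25 to 28 without 1 library. Leaving out an fl3 library can only add fl3-only genes by the rule's construction; without 1 WT library at least 35 of the 37 remained. The median CV of 8.53% was 8.65% after median-of-ratios scaling and 6.29% to 7.20% over pairs of fl3 libraries, where a CV of 2 values is lower by construction. The limma fit called 11626 genes, 7675 when only genes of at least 5 FPKM on average were tested, which leaves fewer genes, and 10715 to 11219 without 1 library. Median-of-ratios scaling gave 5806 higher and 5775 lower calls, and quantile normalization 5550 and 5963, against 7519 and 4107 unscaled. With the replicate number as a block 11137 genes were called. Deviations of same-numbered libraries had r across genes of -0.15, 0.07 and -0.02, and other pairs had -0.14 to 0.13. Whether same-numbered libraries shared a batch cannot be read from these values. Median-of-ratios scaling moved the fl3 mean of 11 of the 37 genes by more than 1 SD. Depth is unknown, so values near 0 in WT cannot be given as reads.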

Other observations

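A pair of genes outside the rule was high in a single fl3 library. GRMZM2G121308 had 120 FPKM in fl3 replicate 3, with 0.0984 and 0.189 FPKM in fl3 replicates 1 and 2 and at most 0.133 FPKM in WT. GRMZM2G118873 had 63.8 FPKM in fl3 replicate 3, with 0.303 and 0.0413 FPKM in the other fl3 libraries and at most 0.205 FPKM in WT. They were the 2 genes with at least 20 FPKM in 1 of the 6 libraries and under 1 FPKM in the other 5. The reverse was seen for the genes AC194298.3_FG005 and GRMZM2G373011, which are listed at 0 in fl3 replicate 3 and had at least 7.54 FPKM in fl3 replicates 1 and 2. AC194298.3_FG005 had 9.63, 3.49 and 0 FPKM in the WT libraries.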
